A study of Homo sapiens with 6 samples.

Results

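The 64 transcripts described here encode the eukaryotic translation initiation factors (eIF) and elongation factors (eEF), together with eIF4E inhibitors and the enzymes that modify elongation factors. They were chosen by symbol from the 61860 rows of the count table. Of 222 rows whose symbol starts with EIF1 to EIF6, EEF1 or EEF2, 4 EIF2AK kinases, EIF1AY, 9 hyphenated symbols and 144 pseudogene symbols were left out. The cells were 786-O, an established human clear cell renal carcinoma line, with a short hairpin RNA against METTL3 (shMETTL3, 3 libraries) or a control hairpin (shControl, 3 libraries), each stably expressed. METTL3 catalyses the N6-methylation of adenosine (m6A) in mRNA, and the study concerns the roles of that mark in kidney tumours rich in L-2-hydroxyglutarate. Paired-end reads came from rRNA-depleted total RNA on a DNBSEQ instrument. Neither the hairpin's target site nor separate cultures for the libraries of a group are stated, so p-values cover only the spread among these libraries and that spread may be technical. All values come from 1 cell line, and the libraries are called A, B and C after the letters of their columns.

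Translation of most mRNAs begins when the eIF4F complex binds the cap, eIF3 joins the mRNA to the small ribosomal subunit, and eIF2 brings the initiator tRNA in its GTP form. The exchange factor eIF2B reloads eIF2 with GTP, and phosphorylated eIF2 holds eIF2B inactive. During elongation, eEF1A delivers aminoacyl-tRNAs, the eEF1B complex recharges it with GTP, and eEF2 moves the ribosome along. Many mRNAs of elongation factors and ribosomal proteins start with a C followed by a run of pyrimidines (a 5′ terminal oligopyrimidine tract), through which mTORC1 and LARP1 control their translation and stability.

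METTL3 itself had 11.3, 9.84 and 11.4 CPM in shMETTL3 libraries A, B and C, against 37.2, 38.1 and 37.6 CPM in the shControl libraries (log2 fold change −1.80 with SE 0.083, edgeR adjusted p = 1.45e-07), so the shMETTL3 libraries lay below all shControl libraries. CPM are TMM-scaled counts relative to library size, and changes are log2 fold changes of shMETTL3 over shControl from edgeR's quasi-likelihood test, called at a Benjamini-Hochberg adjusted p under 0.05 over 18740 genes. Total counts ran from 100534896 to 101473388 in the shMETTL3 libraries and from 102420127 to 103624456 in the shControl libraries. Transcripts of the mitochondrial genome took 7.77% to 8.496% of counts in the shMETTL3 libraries, against 4.23% to 4.75% in the shControl libraries. Left out of the fit, they changed none of the member calls. Over all genes the median log2 fold change was −0.11 when scaled by library total, against −0.0030 with TMM. The 7 markers of a renal epithelial line averaged at least 3.14 CPM in each group, of which PAX8 and VIM were called higher (log2 fold changes 0.32 and 1.02), KRT19 was called lower (−0.56), and PAX2, KRT8, KRT18 and CDH2 were not called. VIM averaged 2960 ± 604 CPM in the shMETTL3 group and 1461 ± 234 CPM in the shControl group (SD, n = 3), and the part of this change in the results was not tested. The 9 markers of leukocytes, endothelium and erythroid cells reported here averaged at most 0.21 CPM in either group, with CD3E, HBB and HBA1 at 0. Of these, CD14 was called lower (log2 fold change −1.41), at 0.079 CPM in the shMETTL3 group and 0.21 CPM in the shControl group. Of 3 fibroblast markers, PDGFRB averaged 0.929 CPM in the shMETTL3 group and 2.15 CPM in the shControl group. It was called lower (log2 fold change −1.21). COL1A1 averaged 1.17 CPM in the shMETTL3 group and 1.604 CPM in the shControl group and was not called. DCN averaged at most 0.0069 CPM and could not be tested. The part of these markers in the results was not tested.

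Transcripts of elongation factor eEF1A1 and its partner eEF1G, the reinitiation factor EIF2D, the eIF3 subunit EIF3L and the eIF4E inhibitors EIF4EBP1 and EIF4EBP3 rose by more than 0.5 on the log2 scale in shMETTL3 cells. Every subunit of the exchange factor eIF2B fell, as did the cap-binding protein EIF4E, the helicase EIF4A1, the 60S subunit factor EIF6 and 3 eIF3 subunits. Of the 63 members tested, 29 were called (46.0%), 11 higher and 18 lower. Over all genes the same threshold called 33.5%, with 16.5% higher and 16.9% lower. The shMETTL3 libraries lay all above the shControl libraries for 16 members and all below for 23, against 23.4% and 23.9% of all genes, or 61.9% of members against 47.4% of all genes in either direction. Changes were mostly small. The median absolute log2 fold change was 0.24 for members and 0.25 for all genes, and 6 members were called with a change of at least 0.5 (9.52%, against 15.1% of all genes). Members are abundant transcripts, with a median of 100.5 CPM against 10.02 CPM for all genes tested, and the part of abundance in their share of calls was not tested. In RNA from a whole culture, fewer cells that carry a transcript and less of it per cell cannot be told apart.

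**Figure D1:**
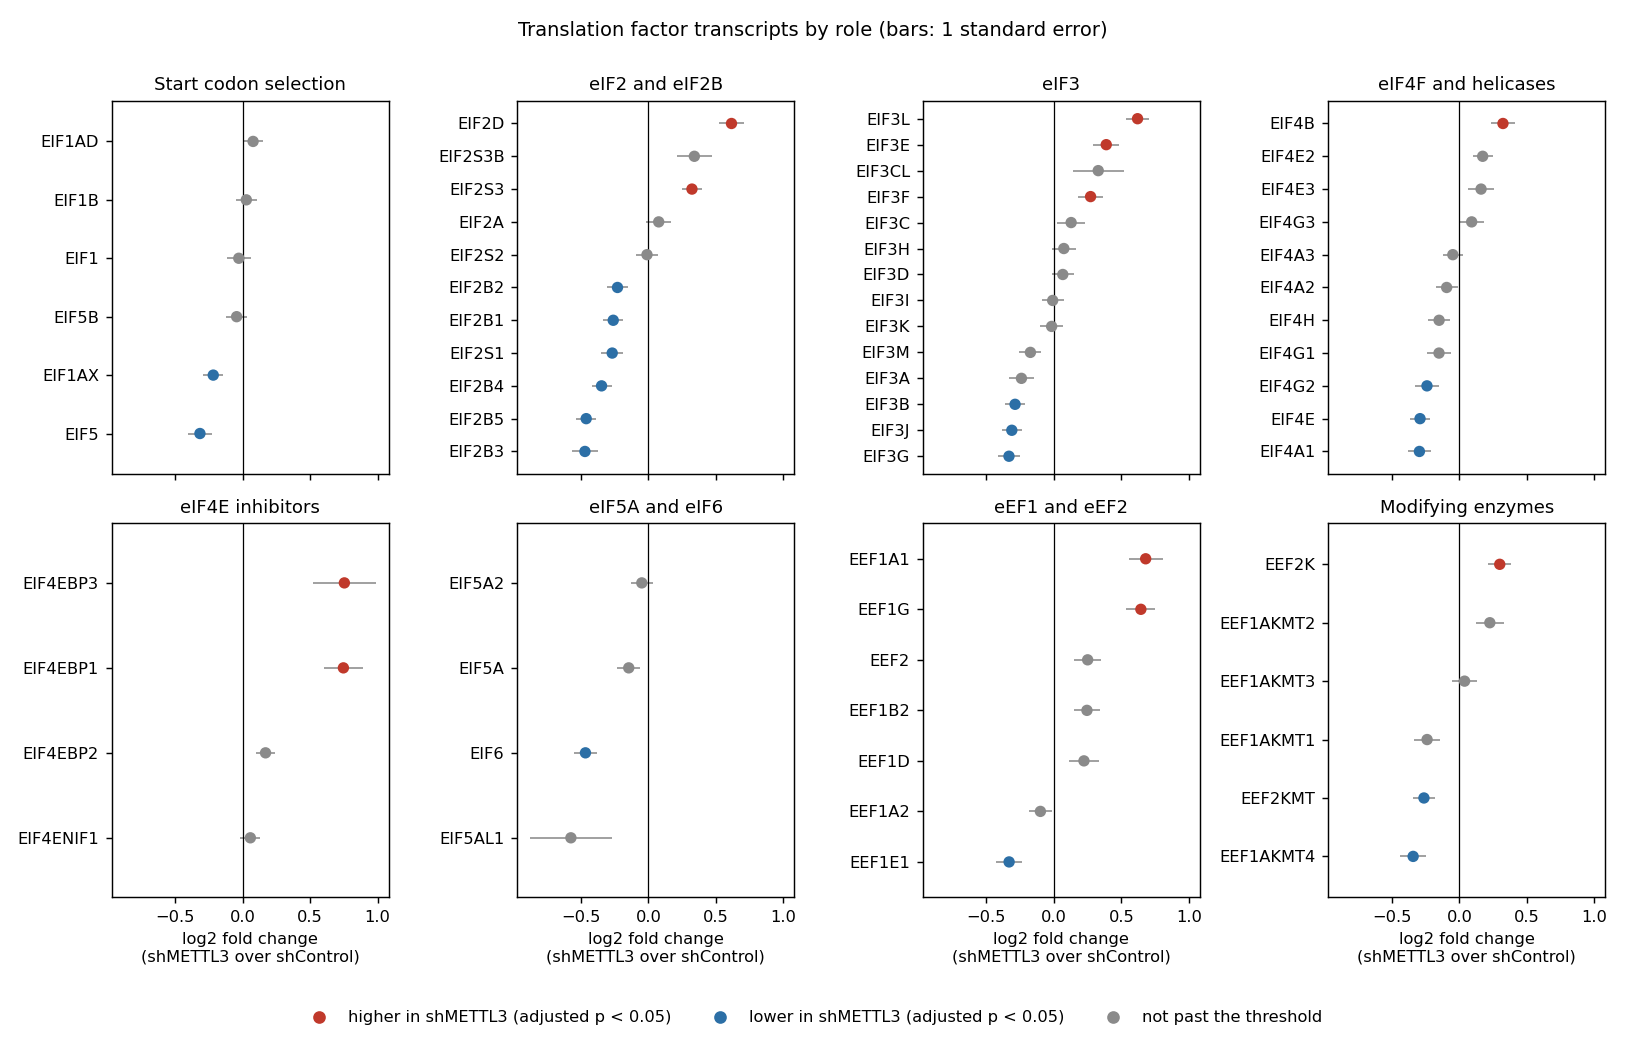
Log2 fold change (x axis, shMETTL3 over shControl) of each of the 63 members tested, by role, with bars of 1 standard error (n = 3 libraries per group). EEF1A1, EEF1G, EIF2D, EIF3L, EIF4EBP1 and EIF4EBP3 lie above 0.5, and the 5 eIF2B subunits lie between −0.47 and −0.23.

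The split between directions depended on scaling and on single libraries. With scaling by library total, 9 members were higher and 25 lower (26.5% of calls higher, against 37.9% with TMM). Over all genes these counts were 1985 and 4727 (29.6% of calls higher, against 49.4% with TMM). With log2(FPKM + 1) and a filter, 8 members were higher and 25 lower, beside 1588 and 3730 of all genes. The main fit called 3099 genes higher and 3171 lower. Leaving out shMETTL3 library B left 7 members higher and 8 lower, beside 2053 and 1959 of all genes. Without shControl library B these were 8 and 10, beside 2309 and 2330 of all genes. Without shMETTL3 library C they were 17 and 18, beside 3265 and 3324 of all genes. In each of the 6 fits without 1 library, 15 of the 29 calls were kept (EEF1A1, EEF1G, EIF2D, EIF2S3, EIF3E, EIF3L and EIF4EBP1 higher, EIF2B3, EIF2B4, EIF2B5, EIF3B, EIF3G, EIF3J, EIF4E and EIF6 lower). On the log2(FPKM + 1) scale without a filter 18 of the 29 calls were kept, and EEF1A1, EEF2K, EIF2B2, EIF2S3, EIF3E, EIF3F, EIF4B, EIF4EBP1, EIF4EBP3, EIF4G2 and EIF5 were lost. Without a filter on low counts, EIF1AX and EIF4G2 were no longer called. Other members gained a call in at least 1 alternative, EEF1B2, EEF1D, EEF2, EIF2S3B, EIF3CL and EIF4E2 as higher, and EEF1A2, EEF1AKMT1, EIF3A, EIF3M, EIF4A2, EIF4G1, EIF4H, EIF5A and EIF5AL1 as lower.

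All members together took 2.37%, 2.36% and 2.14% of counts in shMETTL3 libraries A, B and C, against 2.17%, 2.15% and 2.14% in the shControl libraries. EEF1A1 alone took 0.676%, 0.684% and 0.535% in the shMETTL3 libraries, against 0.451%, 0.438% and 0.389% in the shControl libraries. Without EEF1A1 the shMETTL3 shares of total counts were the lower ones. They were 1.70%, 1.68% and 1.61% in the shMETTL3 libraries, against 1.72%, 1.71% and 1.75% in the shControl libraries. In shares of total counts, EEF1A1 was thus the transcript by which the family in shMETTL3 libraries A and B exceeded every shControl library. These shares are not TMM-scaled. The TMM factors ran from 0.940 to 0.988 in the shMETTL3 libraries and from 1.005 to 1.073 in the shControl libraries. Dividing by them raises the shMETTL3 shares and lowers the shControl shares, so the order without EEF1A1 applies to total counts only. Per transcript length, in the deposited FPKM, EEF1A1 was also the most abundant member, with 4083 ± 541 FPKM in the shMETTL3 group and 2753 ± 210.3 FPKM in the shControl group (SD, n = 3). It was followed in the shControl group by the scanning factor EIF1, with 2075 ± 136 FPKM in the shMETTL3 group and 2309 ± 182 FPKM in the shControl group, and by EEF2, with 1695 ± 187 FPKM in the shMETTL3 group and 1644 ± 72.01 FPKM in the shControl group. At the other end EIF5AL1, a near copy of EIF5A, had 0.217 ± 0.0351 FPKM in the shMETTL3 group and 0.347 ± 0.177 FPKM in the shControl group, and EIF4E1B, with a maximum of 2 counts in any library, could not be tested.

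The first transcribed bases are shown because pyrimidine starts, as defined below, were found in some members that rose. None was found in the members that fell and had an entry. The sequences are 50 bases of the sense strand around a start annotated in RefSeq (GRCh38.p14), 25 before it and 25 from it, and capitals mark a pyrimidine start. Entries were found for 51 of the 64 members, and a pyrimidine start was counted where C was the first base and at least 4 pyrimidines followed. Only the sense strand was searched, and this definition was chosen after the values were seen. Members that rose and had such a start were these.
EEF1A1 (chr6:73521008-73521057, minus strand): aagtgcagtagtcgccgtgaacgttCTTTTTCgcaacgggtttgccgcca
EIF2D (chr1:206612441-206612490, minus strand): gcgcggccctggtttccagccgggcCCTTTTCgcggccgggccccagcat
EIF4B (chr12:53006431-53006480, plus strand): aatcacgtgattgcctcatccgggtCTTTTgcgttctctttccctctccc
EIF2S3 (chrX:24054931-24054980, plus strand): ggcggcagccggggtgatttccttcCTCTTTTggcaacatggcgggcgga
EIF3F (chr11:7987312-7987361, plus strand): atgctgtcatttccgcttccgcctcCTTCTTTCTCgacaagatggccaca
Of the elongation factors below the threshold, EEF2 and the second entry of EEF1B2 had one.
EEF2 (chr19:3985439-3985488, minus strand): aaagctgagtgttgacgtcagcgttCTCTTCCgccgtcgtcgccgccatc
EEF1B2 (chr2:206159870-206159919, plus strand): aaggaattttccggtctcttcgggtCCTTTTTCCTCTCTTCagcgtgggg
EIF3E, EIF3L and EIF4EBP1 rose but had no entry, and EEF2K and EIF4EBP3 rose with another start. EEF1G also rose without a pyrimidine start, its annotated start lying at a purine.
EEF1G (chr11:62573867-62573916, minus strand): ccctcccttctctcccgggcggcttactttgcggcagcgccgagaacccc
Members that fell are shown by EIF2B3, EIF2B5, EIF4E, EIF4A1 and the first entries of EIF2B4 and EIF6, none of which met this definition. EIF4A1 starts with a C, but the run of pyrimidines after it is too short.
EIF2B3 (chr1:44986571-44986620, minus strand): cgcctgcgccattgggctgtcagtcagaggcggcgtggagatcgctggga
EIF2B5 (chr3:184135333-184135382, plus strand): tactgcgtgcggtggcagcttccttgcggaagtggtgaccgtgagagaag
EIF2B4 (chr2:27370314-27370363, minus strand): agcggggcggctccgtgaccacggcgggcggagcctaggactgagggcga
EIF4E (chr4:98929109-98929158, minus strand): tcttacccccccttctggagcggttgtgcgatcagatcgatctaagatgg
EIF4A1 (chr17:7572800-7572849, plus strand): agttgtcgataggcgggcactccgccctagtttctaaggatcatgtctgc
EIF6 (chr20:35284693-35284742, minus strand): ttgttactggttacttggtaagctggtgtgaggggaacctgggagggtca

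Of all 35116 promoter entries, counted singly, 4.07% had a pyrimidine start. A gene was counted if any of its entries had one. Counted by gene, a pyrimidine start was found in 13 of the 51 members with an entry (25.5%), against 7% of the 12223 tested genes with an entry. It was present in 5 of the 8 members that rose, in 0 of the 16 that fell and in 8 of the 26 that were not called. Those 8 were EEF1B2, EEF2, EIF2S3B, EIF2A, EIF3D, EIF3K, EIF4A2 and EIF3M. The median log2 fold change was 0.25 over the 13 members with such a start and −0.15 over the 37 others tested. Among all other tested genes the 843 with such a start had a median of 0.067, with 24.6% higher and 12.8% lower, and the 11330 without had a median of −0.027, with 16.7% higher and 19.6% lower. Allowing the C within 2 bases of the annotated start, which 10.52% of all entries, 15.85% of tested genes and 33.3% of members met, gave 5 of 8 members that rose, 2 of 16 that fell and 10 of 26 not called. Of the other tested genes with this looser start, 21.4% were higher and 15.8% lower. These counts are descriptions and carry no test.

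**Figure D2:**
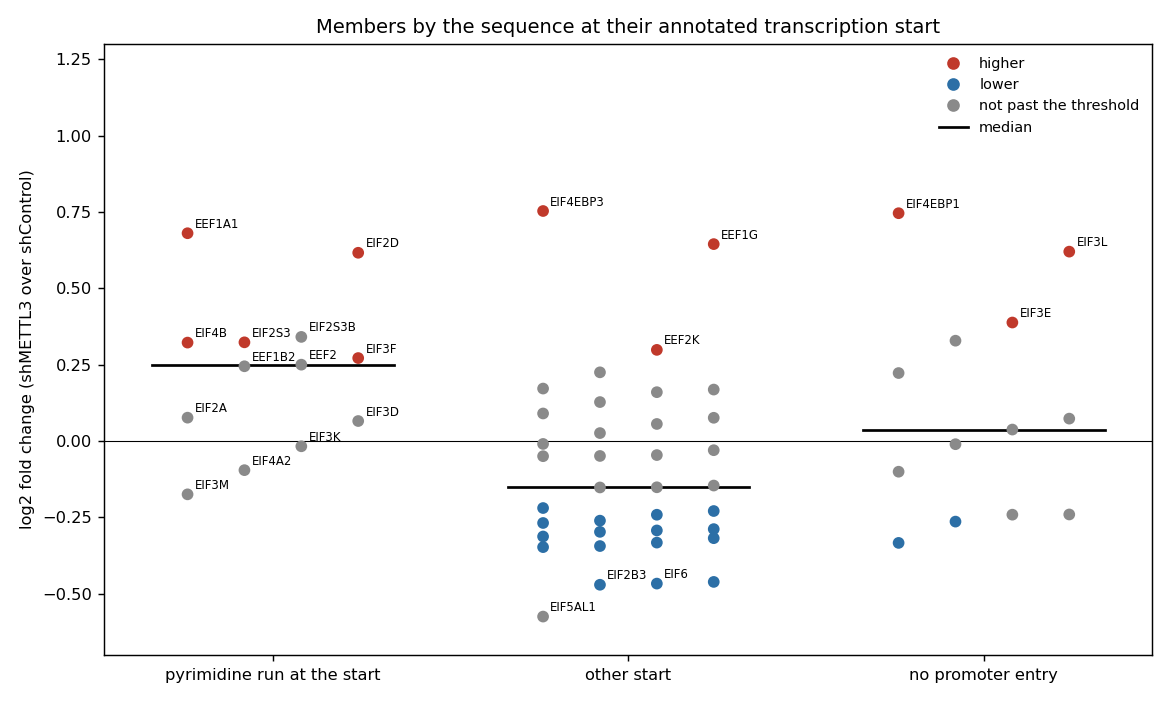
Log2 fold change (y axis, shMETTL3 over shControl) of the 63 members tested, 1 point each, grouped by the sequence at the annotated start, with the median of each group as a line. The medians are 0.25 for members with a pyrimidine run at the start and −0.15 for members with another start; no member of the first group was called lower.

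Among the elongation factors, the transcripts of eEF1A1 and eEF1G rose and that of EEF1E1 fell, while the other 4 did not pass the threshold. The shares over all genes were 16.5% higher and 16.9% lower. EEF1A1, which carries aminoacyl-tRNA to the ribosome (chromosome 6, 73515750 to 73523797, minus strand, GRCh38), had 7192, 7132 and 5420.0 CPM in shMETTL3 libraries A, B and C, against 4485, 4205 and 3629 CPM in the shControl libraries (log2 fold change 0.68 with SE 0.13, edgeR adjusted p = 0.00141). EEF1G, the scaffold subunit of the exchange complex (chromosome 11, 62559601 to 62574086, minus strand), had 1731, 1596 and 1337 CPM in shMETTL3 libraries A, B and C, against 1073, 994 and 916 CPM in the shControl libraries (log2 fold change 0.64 with SE 0.11, edgeR adjusted p = 0.000785). The groups did not overlap for either gene, and in both the shMETTL3 library C was the lowest of its group. EEF1B2, the exchange subunit eEF1Bα, had 423, 348 and 343 CPM in shMETTL3 libraries A, B and C, against 326, 323 and 292 CPM in the shControl libraries, without overlap but short of the threshold (log2 fold change 0.24 with SE 0.096, edgeR adjusted p = 0.0646). It was called higher with DESeq2, with either other filter on counts, with the block and without shMETTL3 library C, and its log2 fold change ran from 0.14 to 0.30 over the 6 fits without 1 library. The second exchange subunit, EEF1D, averaged 394 ± 64.6 CPM in the shMETTL3 group and 337 ± 22.3 CPM in the shControl group (log2 fold change of 0.22, edgeR adjusted p = 0.138). EEF2, the translocase, averaged 3722 ± 342 CPM in the shMETTL3 group and 3129.8 ± 108 CPM in the shControl group, and its shMETTL3 libraries also lay above the others (log2 fold change of 0.25, edgeR adjusted p = 0.0651). EEF2 was called higher with DESeq2, with the block and without shMETTL3 library C, and EEF1D without shMETTL3 library C alone. In FPKM the groups of EEF2 and of EEF1B2 overlapped. Over the alternatives that kept all libraries, the log2 fold change was as low as 0.039 for EEF2 and 0.11 for EEF1B2. EEF1E1, also known as AIMP3, a part of the multi-tRNA synthetase complex, had 13.5, 11.6 and 11.8 CPM in shMETTL3 libraries A, B and C, against 15.1, 16.96 and 14.3 CPM in the shControl libraries (log2 fold change −0.33 with SE 0.095, edgeR adjusted p = 0.0172). That fall was lost without shMETTL3 library B or shControl library B (adjusted p 0.0136 to 0.0892 over the 6 fits that leave out 1 library).

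**Figure D3:**
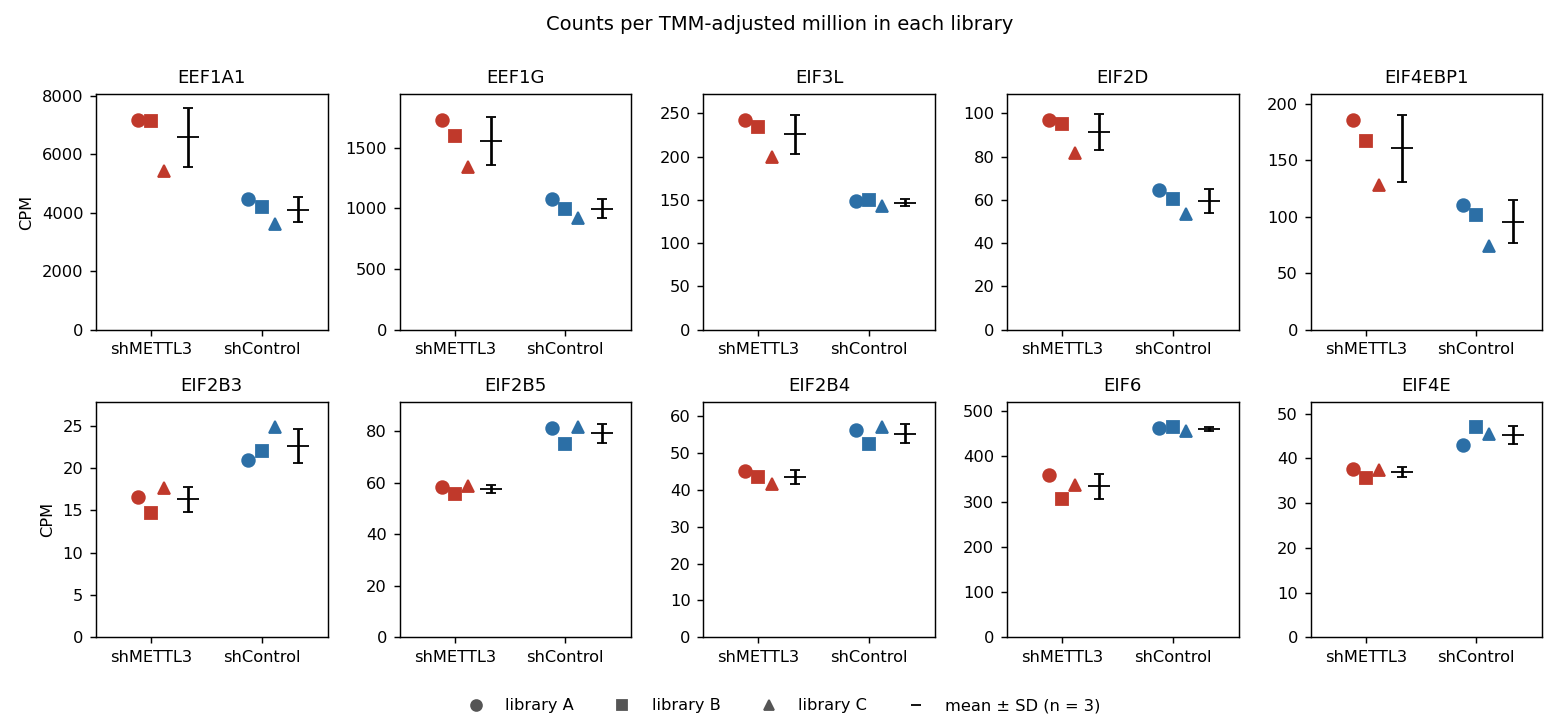
CPM (y axis, from 0) of 10 called members in each library, shMETTL3 at left and shControl at right of each panel, with mean ± SD (n = 3). EEF1A1, EEF1G, EIF3L, EIF2D and EIF4EBP1 are higher in every shMETTL3 library, and EIF2B3, EIF2B5, EIF2B4, EIF6 and EIF4E are lower in every shMETTL3 library.

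Within the eEF1A pair, the share of EEF1A2 was lower in the shMETTL3 libraries. EEF1A2, the eEF1A paralog of muscle and neurons that is also expressed in some tumours, averaged 549 ± 43.2 CPM in the shMETTL3 group and 589 ± 22.96 CPM in the shControl group and was not called (log2 fold change of −0.10, edgeR adjusted p = 0.403). It was called lower with scaling by library total and on the log2(FPKM + 1) and log2(FPKM + 0.1) scales with a filter. Its share of the summed FPKM of both genes was 8.58%, 8.35% and 9.70% in shMETTL3 libraries A, B and C, against 13.7%, 13.5% and 15.6% in the shControl libraries. The groups of shares did not overlap.

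For eIF2 and its exchange factor, all 5 eIF2B subunits fell and the eIF2 subunits parted. Of 11 transcripts in this role, 2 rose (EIF2D and EIF2S3), 6 fell and 3 were not called. The shares over all genes were 16.5% higher and 16.9% lower. EIF2B5, the catalytic ε subunit, had 58.2, 55.7 and 58.7 CPM in shMETTL3 libraries A, B and C, against 81.1, 74.9 and 81.6 CPM in the shControl libraries (log2 fold change −0.46 with SE 0.073, edgeR adjusted p = 0.000552). EIF2B3, the γ subunit that pairs with ε, had 16.6, 14.7 and 17.6 CPM in shMETTL3 libraries A, B and C, against 20.99, 21.97 and 24.8 CPM in the shControl libraries (log2 fold change −0.47 with SE 0.094, edgeR adjusted p = 0.00225). EIF2B4, the regulatory δ subunit, had 45.2, 43.5 and 41.5 CPM in shMETTL3 libraries A, B and C, against 56.3, 52.4 and 57.02 CPM in the shControl libraries (log2 fold change −0.35 with SE 0.074, edgeR adjusted p = 0.00354). Every shMETTL3 library lay below every shControl library for these 3 transcripts. The regulatory α subunit EIF2B1 averaged 37.8 ± 1.40 CPM in the shMETTL3 group and 45.3 ± 1.51 CPM in the shControl group, and the β subunit EIF2B2 averaged 59.97 ± 4.84 CPM in the shMETTL3 group and 70.3 ± 1.78 CPM in the shControl group. Both fell (EIF2B1 with a log2 fold change of −0.26, edgeR adjusted p = 0.0149, and EIF2B2 with a log2 fold change of −0.23, edgeR adjusted p = 0.0388). The EIF2B1 call was lost without shMETTL3 library B or shControl library B and the EIF2B2 call without shMETTL3 library B or shControl library A or B or C, with adjusted p up to 0.0683 and 0.169.

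EIF2S1, the eIF2α subunit whose phosphorylation blocks eIF2B, averaged 40.8 ± 3.55 CPM in the shMETTL3 group and 49.2 ± 2.20 CPM in the shControl group (log2 fold change −0.27 with SE 0.082, edgeR adjusted p = 0.023). It fell, but not without shMETTL3 library A or B or shControl library B or C (adjusted p 0.00654 to 0.0986 over the 6 fits). EIF2S3, the GTP-binding γ subunit encoded on the X chromosome, averaged 159 ± 5.62 CPM in the shMETTL3 group and 127 ± 6.61 CPM in the shControl group and rose (log2 fold change 0.32 with SE 0.075, edgeR adjusted p = 0.00565). The β subunit EIF2S2 had a log2 fold change of −0.010, edgeR adjusted p = 0.937. Transcripts of the 3 subunits of 1 complex thus lay on both sides of 0. EIF2S3B, a near copy of EIF2S3 with a few CPM, had a log2 fold change of 0.34, edgeR adjusted p = 0.0554, and summing the counts of near-identical pairs changed no call. EIF2D, which delivers initiator and other tRNAs without GTP and acts in recycling and reinitiation (chromosome 1, 206571292 to 206612463, minus strand), had 97.1, 94.9 and 81.7 CPM in shMETTL3 libraries A, B and C, against 64.6, 60.4 and 53.6 CPM in the shControl libraries. It was higher in every shMETTL3 library (log2 fold change 0.62 with SE 0.092, edgeR adjusted p = 0.000377). EIF2A, a factor distinct from eIF2α, was not called (log2 fold change of 0.077, edgeR adjusted p = 0.548), and its exons overlap those of SERP1 on the other strand.

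Of the 14 transcripts of eIF3 subunits, 3 rose, 3 fell and 8 were not called, beside 16.5% higher and 16.9% lower over all genes. EIF3L had 243, 234 and 200.1 CPM in shMETTL3 libraries A, B and C, against 148, 149.5 and 143 CPM in the shControl libraries (log2 fold change 0.62 with SE 0.086, edgeR adjusted p = 0.000244). EIF3E, a subunit that binds eIF4G, had 169.9, 164 and 135 CPM in shMETTL3 libraries A, B and C, against 112, 129 and 117 CPM in the shControl libraries (log2 fold change 0.39 with SE 0.095, edgeR adjusted p = 0.00751). Neither gene's groups overlapped in CPM, while in FPKM those of EIF3E did. On the other side, EIF3G, an RNA-binding subunit that takes part in scanning, had 190.2, 167 and 166 CPM in shMETTL3 libraries A, B and C, against 226, 211 and 223 CPM in the shControl libraries (log2 fold change −0.33 with SE 0.081, edgeR adjusted p = 0.00711). EIF3J, a loosely bound subunit near the decoding site, had 84.4, 79.2 and 74.5 CPM in shMETTL3 libraries A, B and C, against 98.5, 99.6 and 97.5 CPM in the shControl libraries (log2 fold change −0.31 with SE 0.074, edgeR adjusted p = 0.00644). Both fell without overlap. EIF3B, the core scaffold, averaged 194 ± 4.15 CPM in the shMETTL3 group and 237 ± 8.75 CPM in the shControl group and fell (log2 fold change of −0.29, edgeR adjusted p = 0.00992).

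EIF3F averaged 166 ± 20.3 CPM in the shMETTL3 group and 137 ± 8.25 CPM in the shControl group and was called higher, though its groups overlapped (log2 fold change of 0.27, edgeR adjusted p = 0.0398). The call was lost without shMETTL3 library A or B or shControl library A or B or C, with adjusted p up to 0.155, and also with scaling by library total and on the log2 FPKM scale. EIF3A, the largest core subunit, averaged 395 ± 24.01 CPM in the shMETTL3 group and 466 ± 45.4 CPM in the shControl group, with every shMETTL3 library lower but short of the threshold (log2 fold change of −0.24, edgeR adjusted p = 0.0578). It was called lower with DESeq2, with the block, with scaling by library total and on the log2 FPKM scale. EIF3M had a log2 fold change of −0.17, edgeR adjusted p = 0.119. Log2 fold changes of EIF3C, EIF3D, EIF3H, EIF3I and EIF3K lay between −0.017 and 0.13, and none was called. EIF3CL, a near copy of EIF3C, had a log2 fold change of 0.33, edgeR adjusted p = 0.202. In FPKM, which is set to transcript length, the lowest of the eIF3 subunits apart from EIF3CL was EIF3J, with 44.2 ± 2.76 FPKM in the shMETTL3 group and 58.5 ± 1.54 FPKM in the shControl group. EIF3I was the highest in the shMETTL3 group, with 235 ± 14.3 FPKM in the shMETTL3 group and 252 ± 11.6 FPKM in the shControl group. EIF3G was the highest in the shControl group, with 217 ± 12.4 FPKM in the shMETTL3 group and 297 ± 12.4 FPKM in the shControl group. EIF3L, which rose, stood at 199.7 ± 18.4 FPKM in the shMETTL3 group and 139.6 ± 6.31 FPKM in the shControl group, so it moved up in the order of the subunits.

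**Figure D4:**
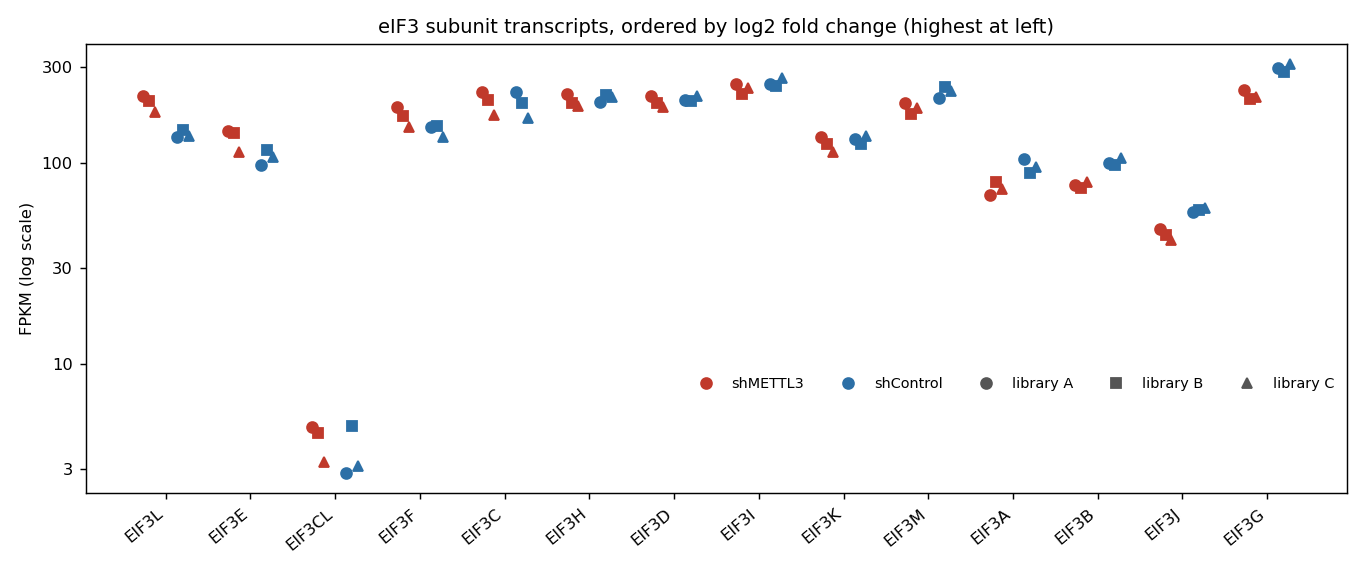
Deposited FPKM (y axis, log scale) of the 14 eIF3 subunit transcripts in each library, ordered by log2 fold change from the highest at left, with shMETTL3 left of shControl. On this scale EIF3L is higher in every shMETTL3 library, EIF3M, EIF3A, EIF3B, EIF3J and EIF3G are lower in every shMETTL3 library, and the groups of EIF3E overlap.

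At the cap, the transcript of the cap-binding protein fell and those of its inhibitors EIF4EBP1 and EIF4EBP3 rose, while EIF4EBP2 and EIF4ENIF1 did not pass the threshold. EIF4E had 37.5, 35.7 and 37.5 CPM in shMETTL3 libraries A, B and C, against 43.1, 47.00 and 45.5 CPM in the shControl libraries (log2 fold change −0.29 with SE 0.073, edgeR adjusted p = 0.00833). EIF4EBP1, which sequesters eIF4E when mTORC1 is inactive, had 186, 167 and 129 CPM in shMETTL3 libraries A, B and C, against 111, 102 and 74.5 CPM in the shControl libraries (log2 fold change 0.75 with SE 0.15, edgeR adjusted p = 0.00199). The groups did not overlap for either gene, with EIF4EBP1 higher and EIF4E lower in every shMETTL3 library. EIF4EBP3, another inhibitor, had few counts, with 0.73, 0.628 and 0.539 CPM in shMETTL3 libraries A, B and C, against 0.432, 0.31 and 0.382 CPM in the shControl libraries (log2 fold change 0.75 with SE 0.24, edgeR adjusted p = 0.0258). The call was lost without shMETTL3 library A or B or shControl library B and with DESeq2, and its exons are shared with the readthrough gene ANKHD1-EIF4EBP3, which held 26748 counts over the 6 libraries beside 304 for EIF4EBP3. EIF4EBP2 had 73.99, 80.2 and 81.1 CPM in shMETTL3 libraries A, B and C, against 67.3, 70.95 and 71.1 CPM in the shControl libraries and did not pass (log2 fold change 0.17 with SE 0.073, edgeR adjusted p = 0.0921). EIF4ENIF1, which carries eIF4E into the nucleus and to processing bodies, had a log2 fold change of 0.056, edgeR adjusted p = 0.598.

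Of the 11 tested eIF4F and helicase transcripts, EIF4B rose, EIF4E, EIF4A1 and EIF4G2 fell and 7 were not called. The shares over all genes were 16.5% higher and 16.9% lower. EIF4A1, the main initiation helicase, had 925, 834 and 932 CPM in shMETTL3 libraries A, B and C, against 1133, 1107 and 1067 CPM in the shControl libraries (log2 fold change −0.30 with SE 0.086, edgeR adjusted p = 0.0184). EIF4B, which stimulates that helicase, had 346, 360.4 and 307 CPM in shMETTL3 libraries A, B and C, against 287, 268 and 256 CPM in the shControl libraries (log2 fold change 0.32 with SE 0.087, edgeR adjusted p = 0.0124). EIF4G2, an eIF4G relative that lacks the eIF4E site, had 495, 504 and 562 CPM in shMETTL3 libraries A, B and C, against 639, 617 and 589 CPM in the shControl libraries (log2 fold change −0.24 with SE 0.086, edgeR adjusted p = 0.0442). In each of these the groups stood apart, with EIF4B as the one that was higher. The call of EIF4A1 was lost without shMETTL3 library B or shControl library A or B, that of EIF4B without shMETTL3 library B or shControl library B or C, and that of EIF4G2 without shMETTL3 library A or B or shControl library A or B or C, with adjusted p up to 0.0929, 0.0625 and 0.139. The EIF4B call was also lost on the log2 FPKM scale. The scaffold EIF4G1 had a log2 fold change of −0.15, edgeR adjusted p = 0.216, EIF4H, which acts like EIF4B, had a log2 fold change of −0.15, edgeR adjusted p = 0.157, and EIF4A3, a helicase of the exon junction complex, had a log2 fold change of −0.049, edgeR adjusted p = 0.636.

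Shares within paralog sets are given as descriptions, without a test. Of the summed FPKM of EIF4E, EIF4E2 and EIF4E3, EIF4E made up 27.4%, 30.2% and 30.98% in shMETTL3 libraries A, B and C, against 36.1%, 37.5% and 38.8% in the shControl libraries. EIF4E2, a cap-binding repressor also called 4EHP, made up 70.95%, 67.98% and 67.4% in shMETTL3 libraries A, B and C, against 62.4%, 60.7% and 59.3% in the shControl libraries. The shares of EIF4E were lower, and those of EIF4E2 higher, in every shMETTL3 library, although EIF4E2 itself was not called (log2 fold change of 0.17, edgeR adjusted p = 0.0943). Of the EIF4A1 and EIF4A2 sum, EIF4A2 made up 18.8%, 19.9% and 18.7% in shMETTL3 libraries A, B and C, against 16.5%, 17.00% and 17.5% in the shControl libraries. Of the EIF4G set, EIF4G3, a paralog of EIF4G1, made up 4.93%, 5.78% and 5.27% in shMETTL3 libraries A, B and C, against 4.28%, 4.29% and 4.23% in the shControl libraries. Neither of these shares overlapped between the groups. Shares of EIF4E3, EIF4G1, EIF4G2 and the EIF4EBP genes overlapped between the groups. EIF4EBP1 held 94.9% to 96.6% of the EIF4EBP sum in the shMETTL3 libraries, against 92.6% to 95.1% in the shControl libraries.

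**Figure D5:**
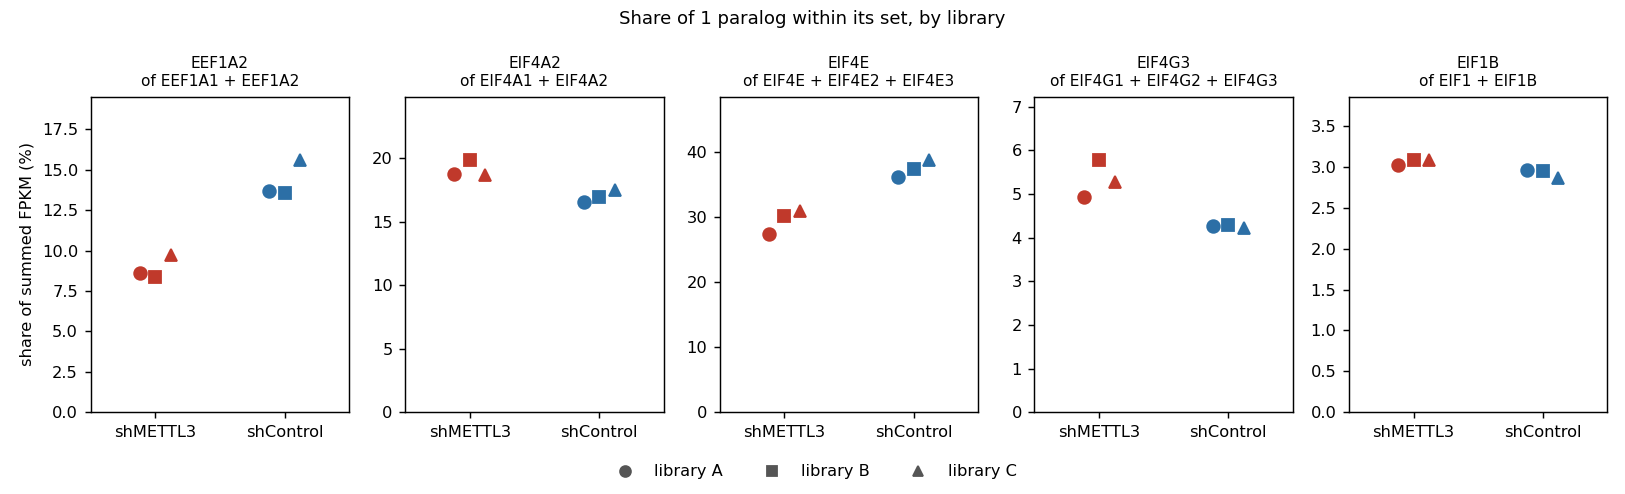
Share of 1 paralog in the summed FPKM of its set (y axis, percent, from 0) in each library, shMETTL3 left of shControl in each panel. EEF1A2 and EIF4E hold lower shares in every shMETTL3 library, and EIF4A2, EIF4G3 and EIF1B hold higher shares in every shMETTL3 library.

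For start codon selection, 2 of 6 transcripts fell and none rose, beside 16.9% lower and 16.5% higher over all genes. EIF5, which triggers GTP hydrolysis on eIF2 at the start codon, had 53.2, 56.9 and 65.8 CPM in shMETTL3 libraries A, B and C, against 69.6, 71.6 and 78.1 CPM in the shControl libraries (log2 fold change −0.32 with SE 0.089, edgeR adjusted p = 0.015). EIF1AX, which works with eIF1 in scanning, had 91.4, 89.8 and 94.9 CPM in shMETTL3 libraries A, B and C, against 107, 114 and 100.4 CPM in the shControl libraries (log2 fold change −0.22 with SE 0.076, edgeR adjusted p = 0.0401). Both stood below the shControl libraries, but the EIF5 call was lost without shMETTL3 library A or B or shControl library C and on the log2 FPKM scale, and the EIF1AX call without shMETTL3 library A or B or shControl library A or B (adjusted p up to 0.0602 and 0.173). EIF1, EIF1B, EIF1AD and EIF5B, the subunit-joining factor, had log2 fold changes from −0.046 to 0.076, none called. Of the EIF1 and EIF1B sum, EIF1B made up 3.02%, 3.08% and 3.08% in shMETTL3 libraries A, B and C, against 2.95%, 2.95% and 2.87% in the shControl libraries, with no overlap and a small difference.

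EIF6, which keeps the 60S subunit from joining the 40S subunit and acts in 60S assembly, fell. It had 358, 305 and 338 CPM in shMETTL3 libraries A, B and C, against 463, 465 and 456 CPM in the shControl libraries (log2 fold change −0.47 with SE 0.084, edgeR adjusted p = 0.00128; chromosome 20, 35278911 to 35284985, minus strand). Every shMETTL3 library lay below every shControl library. EIF5A, which helps the ribosome through poorly reacting peptide bonds and is the protein that carries hypusine, had 739, 649 and 688 CPM in shMETTL3 libraries A, B and C, against 805, 752 and 740.5 CPM in the shControl libraries and was not called (log2 fold change −0.15 with SE 0.087, edgeR adjusted p = 0.215). Its paralog EIF5A2 had 51.97, 52.7 and 57.9 CPM in shMETTL3 libraries A, B and C, against 53.8, 60.5 and 53.9 CPM in the shControl libraries (log2 fold change of −0.049, edgeR adjusted p = 0.67). EIF5AL1 had 0.847, 0.679 and 0.918 CPM in shMETTL3 libraries A, B and C, against 1.99, 0.788 and 0.872 CPM in the shControl libraries, from 80, 66 and 92 counts in the shMETTL3 libraries, against 207, 84 and 96 counts in the shControl libraries (log2 fold change of −0.57, edgeR adjusted p = 0.164). The high value was that of shControl library A, and over the 6 fits without 1 library the log2 fold change of EIF5AL1 ran from −0.81 to −0.027. EIF5A was lower in every shMETTL3 library, and the groups of EIF5A2 and EIF5AL1 overlapped.

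Among the enzymes that modify elongation factors, EEF2K rose and 2 methyltransferases fell, beside 16.5% higher and 16.9% lower over all genes. EEF2K, the kinase that phosphorylates and slows eEF2, had 18.7, 20.2 and 16.97 CPM in shMETTL3 libraries A, B and C, against 15.00, 14.8 and 15.7 CPM in the shControl libraries (log2 fold change 0.30 with SE 0.086, edgeR adjusted p = 0.0178). EEF1AKMT4, a lysine methyltransferase of eEF1A, had 18.3, 14.7 and 17.4 CPM in shMETTL3 libraries A, B and C, against 20.2, 21.00 and 22.8 CPM in the shControl libraries (log2 fold change −0.34 with SE 0.094, edgeR adjusted p = 0.0135). EEF2KMT, which methylates eEF2, had 17.5, 15.6 and 17.3 CPM in shMETTL3 libraries A, B and C, against 21.1, 19.9 and 19.4 CPM in the shControl libraries (log2 fold change −0.26 with SE 0.082, edgeR adjusted p = 0.0246). None of these groups overlapped, yet each call was lost without single libraries. For EEF2K these were shMETTL3 library B or shControl library A or B, for EEF1AKMT4 shMETTL3 library B or shControl library C, and for EEF2KMT shMETTL3 library B or shControl library A or B, with adjusted p up to 0.0906, 0.0742 and 0.111. The EEF2K call was also lost with scaling by library total and on the log2 FPKM scale. The eEF1A methyltransferases EEF1AKMT1, EEF1AKMT2 and EEF1AKMT3 were not called, with log2 fold changes of −0.24, 0.23 and 0.038.

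Of the enzymes that make hypusine on eIF5A and diphthamide on eEF2, 3 of 9 fell and none rose. The shares over all genes were 16.9% lower and 16.5% higher. DOHH, which completes hypusine, averaged 32.6 ± 3.63 CPM in the shMETTL3 group and 46.8 ± 3.63 CPM in the shControl group (log2 fold change of −0.52, edgeR adjusted p = 0.00108). DPH2, of the first step of diphthamide synthesis, averaged 69.8 ± 8.03 CPM in the shMETTL3 group and 102 ± 5.06 CPM in the shControl group (log2 fold change of −0.55, edgeR adjusted p = 0.000626), and DPH3, the electron donor of that step, averaged 24.4 ± 3.25 CPM in the shMETTL3 group and 34.7 ± 2.68 CPM in the shControl group (log2 fold change of −0.51, edgeR adjusted p = 0.00204). The DPH3 call was lost on the log2(FPKM + 1) scale without a filter. DPH1 had a log2 fold change of −0.23, edgeR adjusted p = 0.0524, and was called lower with DESeq2, with the block, with scaling by library total, with either other filter on counts and without shMETTL3 library C. The first hypusine enzyme, DHPS, had a log2 fold change of 0.21, edgeR adjusted p = 0.0828.

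Of 11 transcripts around eIF2α phosphorylation, 1 rose, 1 fell and 9 were not called, beside 16.5% higher and 16.9% lower over all genes. DDIT3, the CHOP transcription factor, averaged 140.3 ± 14.3 CPM in the shMETTL3 group and 102 ± 11.9 CPM in the shControl group and rose (log2 fold change of 0.46, edgeR adjusted p = 0.00361), though not on the log2(FPKM + 1) scale without a filter. DNAJC3, an inhibitor of eIF2α kinases, averaged 30.5 ± 2.75 CPM in the shMETTL3 group and 37.3 ± 3.69 CPM in the shControl group and fell with overlapping groups (log2 fold change of −0.29, edgeR adjusted p = 0.0284), a call lost without shMETTL3 library A or B or shControl library B or C. The 4 kinases EIF2AK1 to EIF2AK4 were not called, nor was ATF4, which averaged 582 ± 25.6 CPM in the shMETTL3 group and 611 ± 38.03 CPM in the shControl group (log2 fold change of −0.070, edgeR adjusted p = 0.556).

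Of 17 transcripts of mTORC1, S6 kinase and MNK signalling, 5 rose (MKNK2, MLST8, PDCD4, DDIT4 and SESN2), 3 fell (RPS6KB2, MTOR and MKNK1) and 9 were not called. The shares over all genes were 16.5% higher and 16.9% lower. MKNK2, a kinase that phosphorylates eIF4E, averaged 624 ± 66.8 CPM in the shMETTL3 group and 432 ± 16.96 CPM in the shControl group (log2 fold change of 0.53, edgeR adjusted p = 0.00108), a call lost on the log2(FPKM + 1) scale without a filter. RPS6KB2, an S6 kinase, averaged 46.1 ± 3.42 CPM in the shMETTL3 group and 64.1 ± 2.69 CPM in the shControl group (log2 fold change of −0.48, edgeR adjusted p = 0.000762), and MTOR averaged 89.6 ± 11.4 CPM in the shMETTL3 group and 118 ± 7.54 CPM in the shControl group (log2 fold change of −0.40, edgeR adjusted p = 0.007). MLST8, an mTOR partner, had a log2 fold change of 0.29, edgeR adjusted p = 0.0134, a call lost without shControl library C, with scaling by library total and on the log2 FPKM scale. LARP1, which binds terminal oligopyrimidine mRNAs, averaged 207 ± 18.6 CPM in the shMETTL3 group and 201 ± 12.8 CPM in the shControl group and was not called (log2 fold change of 0.040, edgeR adjusted p = 0.758).

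Of 21 tested transcripts of poly(A) binding, recycling, reinitiation and release, 4 rose and 7 fell, beside 16.5% higher and 16.9% lower over all genes. PABPC4, a cytoplasmic poly(A)-binding protein, averaged 233 ± 26.8 CPM in the shMETTL3 group and 134 ± 1.13 CPM in the shControl group (log2 fold change of 0.80, edgeR adjusted p = 7.34e-05). PABPC1, the main one, averaged 2579.6 ± 173 CPM in the shMETTL3 group and 1778 ± 56.1 CPM in the shControl group (log2 fold change of 0.54, edgeR adjusted p = 0.000881), a call lost on the log2(FPKM + 1) scale without a filter. DHX29, a helicase for structured leaders, averaged 13.5 ± 1.86 CPM in the shMETTL3 group and 20.6 ± 0.776 CPM in the shControl group (log2 fold change of −0.61, edgeR adjusted p = 0.000638), and MCTS1, which works in reinitiation and recycling with DENR, averaged 19.8 ± 0.827 CPM in the shMETTL3 group and 25.7 ± 1.02 CPM in the shControl group (log2 fold change of −0.37, edgeR adjusted p = 0.00274). Both poly(A)-binding proteins thus rose while DHX29 and MCTS1 fell, and DENR had a log2 fold change of −0.19, edgeR adjusted p = 0.0853.

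Of 11 mitochondrial translation factors, 2 rose and 3 fell, beside 16.5% higher and 16.9% lower over all genes. GFM1, the mitochondrial counterpart of eEF2, averaged 39.5 ± 4.08 CPM in the shMETTL3 group and 61.2 ± 3.17 CPM in the shControl group (log2 fold change of −0.63, edgeR adjusted p = 0.000231). MTRF1L, a release factor, averaged 44.3 ± 3.98 CPM in the shMETTL3 group and 55.9 ± 1.71 CPM in the shControl group (log2 fold change of −0.33, edgeR adjusted p = 0.00719). Both were lower in every shMETTL3 library. MRRF, the ribosome recycling factor, averaged 63.1 ± 1.40 CPM in the shMETTL3 group and 51.97 ± 2.17 CPM in the shControl group (log2 fold change of 0.28, edgeR adjusted p = 0.00957), a call lost with scaling by library total and on the log2 FPKM scale. MTIF3, an initiation factor, averaged 11.6 ± 1.34 CPM in the shMETTL3 group and 9.09 ± 0.38 CPM in the shControl group (log2 fold change of 0.36, edgeR adjusted p = 0.0155), a call lost without shMETTL3 library A or B or shControl library A, with scaling by library total and on the log2 FPKM scale.

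Some of these counts may hold reads of other rows. Exons of 39 of the 64 members overlap another gene in GENCODE 29, 15 on the same strand and 32 on the other, and nothing used here says if counting took strand into account. Among called members with a well-counted neighbour on the other strand were EIF3L (ANKRD54), EIF3G (P2RY11), EIF3J (SPG11), EIF2B1 (DDX55 and GTF2H3) and EIF2S1 (ATP6V1D). Others were EIF4G2 (CTR9), EEF2KMT (ALG1) and EEF1AKMT4 (CAMK2N2). Exons of METTL3 overlap those of TOX4 on the other strand. TOX4 held 19680 counts over the 6 libraries, beside 15240 for METTL3. The 144 pseudogene rows belonged to 28 parents. The 42 rows named for EEF1A1 held 6086, 6770 and 5046 counts in shMETTL3 libraries A, B and C, against 3998, 4091 and 3647 in the shControl libraries, together 0.917% of the counts of EEF1A1. They stood higher in every shMETTL3 library, as EEF1A1 did. Those of EIF4E held 0.922% of their parent's counts, and no other parent exceeded 0.658%. Adding pseudogene rows to their parents left all 29 member calls in place.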

How the data were processed

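RNA was measured in 6 libraries. The authors deposited whole-number counts and FPKM (set to transcript length and library size, without TMM) for 61860 Ensembl rows. STAR 2.7.10b, Salmon and GRCh38 are named per the submitters' processing notes, without their roles; no source used here gives annotation release or strand. Of the table's 6 value columns, 3 name a control hairpin; the other 3 carry a construct number and were assigned to shMETTL3 by elimination, with METTL3 as the check.

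Tests used edgeR 4.0.16 (with limma 3.58.1, under R 4.3.3): filterByExpr (18740 genes), TMM, quasi-likelihood test, Benjamini-Hochberg adjustment over all genes, 0.05. SE is the absolute log2 fold change divided by the square root of F. The script was tested on simulated data. Chi-square per degree of freedom between libraries of 1 group was 15.2 to 57.3, so none repeats another. At these depths the spread between libraries limits precision for all but weakly counted transcripts.

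Members, lists and roles were chosen with earlier results of these data known, so their counts carry no test. Values per library were given for up to 4 members of a role with the smallest p and for paralogs (as CPM or share of FPKM). They were also given for called members with an absolute change of at least 0.5. Of the 4 genes with the smallest p in each list, not all were named. EEF2, EEF1D, EEF1A2, other subunits of eIF2, eIF2B and eIF3, and ATF4, LARP1, DENR, DHPS and the further called mTORC1 transcripts were named after their values were seen. Alternatives used DESeq2 1.42.0 and its size factors, voom, library totals, other filters (none, or 1 CPM in 3 libraries), log2(FPKM + 1) and log2(FPKM + 0.1) with FPKM of at least 0.5 in 3 libraries, a block, single libraries left out, and summed copies.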

Additional observations from a re-analysis of the deposited data

How the results depend on the processing

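No called member changed sign under any alternative. The splits between higher and lower moved most. With library total scaling 1985 genes were higher and the member median was −0.13; with log2(FPKM + 1) and a filter these were 1588 and −0.12, with log2(FPKM + 0.1) 1568 and −0.13, and with log2(FPKM + 1) without a filter 1027 and −0.12, with 3 members higher. Without 1 library, 7 to 17 members were higher and 8 to 18 lower, with 2053 to 3265 genes higher, 1959 to 3324 lower and a member median of −0.073 to 0.015. DESeq2's own size factors, voom and leaving out mitochondrial transcripts each shared all 29 calls, and DESeq2 shared 28.

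Members that were not called changed sign as follows, on the log2 scale. Library total scaling gave EIF4G3 −0.018, EIF3D −0.046, EIF1B −0.087, EEF1AKMT3 −0.074, EIF2A −0.032, EIF3H −0.039, EIF1AD −0.035 and EIF4ENIF1 −0.055. The log2(FPKM + 1) scale with a filter gave EIF3D −0.047, EIF1B −0.084, EEF1AKMT3 −0.017, EIF2A −0.044, EIF3H −0.050, EIF4E3 −0.0069, EIF1AD −0.20 and EIF4ENIF1 −0.058, and without a filter EIF3D −0.047, EIF1B −0.084, EEF1AKMT3 −0.017, EIF2A −0.044, EIF3H −0.050, EIF4E3 −0.0069, EIF1AD −0.20 and EIF4ENIF1 −0.058. The log2(FPKM + 0.1) scale gave EIF3D −0.048, EIF1B −0.085, EEF1AKMT3 −0.020, EIF2A −0.044, EIF3H −0.051, EIF4E3 −0.0090, EIF1AD −0.21 and EIF4ENIF1 −0.063. Over the fits without 1 library the ranges were EIF1B −0.034 to 0.069, EIF3H −7.5e-05 to 0.14, EIF3I −0.068 to 0.028, EIF2S2 −0.082 to 0.052, EIF3K −0.11 to 0.052, EIF5B −0.10 to 0.0099, EEF1AKMT3 −0.023 to 0.088, EIF5A2 −0.096 to 0.0083 and EIF2A −0.021 to 0.13. The cause of these changes was not tested.

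Nothing links the column letters to the labelled replicate numbers, and they did not pair the libraries: deviations of same-letter libraries correlated at −0.018, −0.049 and 0.17. A fit with the letter as a replicate block called 14 members higher and 19 lower, including all 29 calls, and 3421 genes higher and 3564 lower. Depth limits EIF4E1B (at most 2 counts), EIF5AL1 and EIF4EBP3.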
